A study of Mus musculus with 15 samples.

Results

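The small leucine-rich proteoglycans and the large hyaluronan-binding proteoglycans are core proteins of the extracellular matrix, many of which carry long sulfated sugar chains. Their genes were followed in mouse lungs injured with bleomycin, a drug that breaks DNA and is followed by scarring when given into the trachea. The 10 genes described here were chosen by name from the 33340 genes of the count table: biglycan (Bgn), decorin (Dcn), asporin (Aspn), lumican (Lum), fibromodulin (Fmod), Prelp, osteomodulin (Omd), osteoglycin (Ogn), versican (Vcan) and aggrecan (Acan). Of these, 9 passed the filter on low counts and were tested, and Acan did not pass it.

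Polyadenylated RNA of whole lungs from C57BL/6 mice was sequenced. The mice were males of at least 10 weeks. There were 4 libraries of day 0, 4 of day 7, 4 of day 14 and 3 of day 21 after a single intratracheal dose of bleomycin at 5 U/kg. These numbers are from the titles, while the series' design text gives 3 for each time. Day 0 lungs had no treatment by their labels, except that the title of replicate 4 calls it a control and its treatment label names the drug. The title put it in day 0 here. No vehicle group was compared, and the labels do not say whether each library is 1 animal, so the p-values measure the spread between these libraries. The libraries held 15652008 to 18020661 counted reads.

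Small leucine-rich proteoglycans, or SLRPs, share a horseshoe-shaped domain of leucine-rich repeats that binds collagen and sets the width and spacing of its fibrils. Class I holds Bgn and Dcn, which carry chondroitin or dermatan sulfate, and Aspn, which has a run of aspartate in place of a chain. Lum, Fmod, Prelp and Omd belong to class II, in which keratan sulfate is the usual chain, and Ogn belongs to class III. Vcan and Acan are hyalectans, large core proteins that bind hyaluronan: Vcan is part of the loose provisional matrix of injured tissue, and Acan is the main proteoglycan of cartilage. In the lung most of these core proteins come from fibroblasts and related mesenchymal cells of the airway, vessel and alveolar wall.

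Most SLRP genes lie in clusters, so neighbours could be compared. Coordinates are on GRCm38 (mm10). Dcn (chr10:97479609-97518143) and Lum (chr10:97565128-97572703) are 47.0 kb apart. Aspn (chr13:49544443-49567565), Omd (chr13:49582462-49592822) and Ogn (chr13:49608046-49624501) follow each other with gaps of 14.9 kb and 15.2 kb. Prelp (chr1:133910304-133921414) and Fmod (chr1:134037254-134048277) are 115.8 kb apart with no coding gene between them. Bgn (chrX:73483602-73495933), Vcan (chr13:89655312-89742509) and Acan (chr7:79053483-79115099) stand alone. All 10 are protein-coding. Antisense genes share exon sequence with 2 of them, Gm15851 with Prelp and Cenpp with Aspn. Gm15851 had 0 to 2 counts and Cenpp 3 to 38 counts per library, and the strand setting of the counting is not given in the sources used here.

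The 250 bases before the start of 6 members are shown. Bgn was chosen as the most abundant member, and the others as neighbours called in opposite directions. Against day 0, Prelp fell and Fmod rose at days 14 and 21. Omd and Ogn fell, while Aspn was called higher only at day 21, a call lost without day 21 replicate 1. The bases were read from RefSeq promoters on GRCm38.p6, which held 8 of the 10 members. Dcn and Lum were not among them. Each runs 5′ to 3′ on the strand of its gene. Capitals mark every match on either strand to the Smad motif CAGAC, and also to the AP-1 motif TGANTCA, in which N is any base. They mark the TATA box letters TATAAA as well, and likewise the GC box letters GGGCGG, and matches that overlap run together.
Bgn: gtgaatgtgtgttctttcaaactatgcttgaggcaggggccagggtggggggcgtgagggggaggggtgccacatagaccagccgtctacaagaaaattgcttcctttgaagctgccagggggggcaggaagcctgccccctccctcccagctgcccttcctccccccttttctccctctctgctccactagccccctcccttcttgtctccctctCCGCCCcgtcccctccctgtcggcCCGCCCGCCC
Fmod: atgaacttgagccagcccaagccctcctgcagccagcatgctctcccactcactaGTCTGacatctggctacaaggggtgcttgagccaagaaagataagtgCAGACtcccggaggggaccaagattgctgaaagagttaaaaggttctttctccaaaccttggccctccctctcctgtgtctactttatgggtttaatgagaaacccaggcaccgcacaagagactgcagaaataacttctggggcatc
Prelp: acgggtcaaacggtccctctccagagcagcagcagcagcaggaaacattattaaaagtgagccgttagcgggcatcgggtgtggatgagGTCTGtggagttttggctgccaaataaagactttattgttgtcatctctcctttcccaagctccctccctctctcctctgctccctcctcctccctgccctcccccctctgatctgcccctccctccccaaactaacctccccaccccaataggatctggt
Aspn: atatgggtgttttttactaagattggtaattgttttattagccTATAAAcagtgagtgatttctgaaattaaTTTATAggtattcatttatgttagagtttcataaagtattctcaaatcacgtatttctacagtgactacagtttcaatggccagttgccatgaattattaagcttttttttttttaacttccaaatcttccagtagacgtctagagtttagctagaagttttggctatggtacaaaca
Omd: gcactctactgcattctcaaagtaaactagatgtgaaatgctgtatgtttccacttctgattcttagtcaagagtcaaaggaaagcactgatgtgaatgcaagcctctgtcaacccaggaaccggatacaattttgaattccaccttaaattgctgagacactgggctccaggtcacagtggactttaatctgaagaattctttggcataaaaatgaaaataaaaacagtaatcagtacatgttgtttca
Ogn: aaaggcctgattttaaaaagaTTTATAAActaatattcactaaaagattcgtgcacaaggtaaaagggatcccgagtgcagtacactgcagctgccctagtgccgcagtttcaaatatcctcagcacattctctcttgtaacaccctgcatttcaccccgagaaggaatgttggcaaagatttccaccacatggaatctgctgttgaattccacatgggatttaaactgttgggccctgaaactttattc

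The windows are chrX:73483351-73483600, chr1:134037004-134037253, chr1:133921402-133921651, chr13:49544193-49544442, chr13:49582212-49582461 and chr13:49607765-49608014, with Prelp on the minus strand and the others on the plus strand. CAGAC is the core of the site that Smad proteins, the transcription factors of TGFβ signalling, can bind. It occurred 2 times before Fmod and 1 time before Prelp, and 42.2% of the 32851 windows of this length hold it. The TATA box letters TATAAA occurred 2 times before Aspn and 2 times before Ogn, against 12.4% of all windows with any. The GC box letters GGGCGG occurred 3 times before Bgn, and 32.7% of all windows hold them. TGANTCA, the site of AP-1 factors, was in none of the 8 members' windows and in 6.75% of all. Omd held none of the 4 motifs. GC content was 64.4% before Bgn, 51.2% before Fmod, 55.6% before Prelp, 42.0% before Ogn, 38.4% before Omd and 30.0% before Aspn, against a median of 52.4% over all windows. These matches are descriptions of letters and were not tested against the changes below.

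Levels are given as CPM, the counts of a gene scaled to the total of its library after TMM normalization, and between genes as CPM per kb of summed exon length. At day 0, Bgn had the highest level per length at 164 ± 11.3 CPM per kb (SD, n = 4), followed by Ogn at 145 ± 20.1 and Prelp at 136 ± 9.35 CPM per kb. Dcn was at 28.1 ± 7.57, Aspn at 6.61 ± 1.23, Fmod at 3.35 ± 0.378 and Lum at 2.54 ± 0.886 CPM per kb. Omd was at 2.08 ± 0.306, Vcan at 1.12 ± 0.63 and Acan at 0.00607 ± 0.0121 CPM per kb. The libraries of Bgn and Ogn, of Ogn and Prelp, of Fmod and Lum, and of Lum and Omd overlapped, and the other neighbours in this order did not.

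The order changed after bleomycin. At day 21, Bgn was at 344 ± 31.4 CPM per kb (SD, n = 3) and Prelp, now next to it, at 56.0 ± 15.2 CPM per kb. Ogn was at 38.6 ± 7.75, Dcn at 30.8 ± 6.64 and Fmod at 25.3 ± 6.32 CPM per kb. Aspn was at 13.6 ± 7.69, Lum at 6.30 ± 3.30, Vcan at 2.96 ± 1.11 and Omd at 0.371 ± 0.209 CPM per kb. At this day the libraries of Bgn lay apart from those of Prelp, and neighbours from Prelp down to Vcan overlapped. As these are whole lungs, fewer cells of a type and less RNA per cell cannot be told apart.

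**Figure D1:**
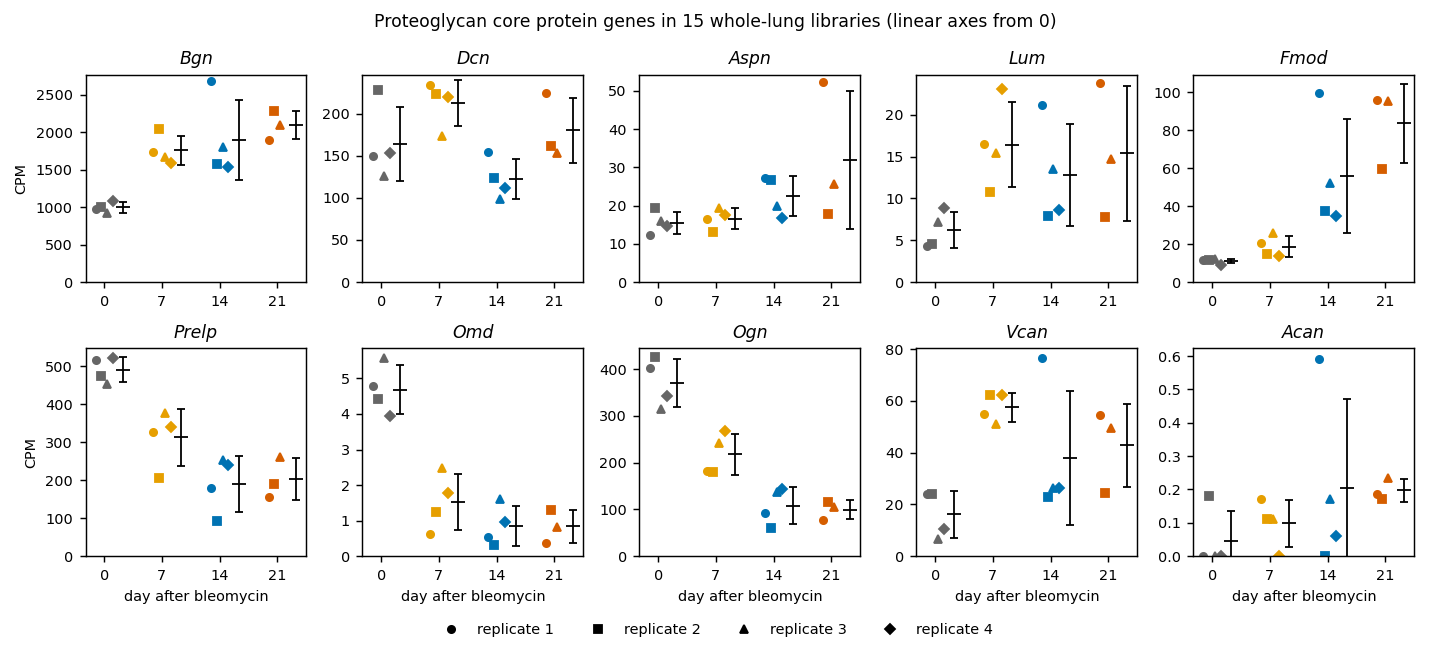
CPM of the 10 proteoglycan genes (y axes, linear from 0) against day after bleomycin (x axes), with 1 point per library, the marker shape giving the replicate number and the black bar the mean ± SD. Bgn and Fmod libraries after day 0 lie above those of day 0, Ogn, Prelp and Omd libraries lie below them, and Acan stays at or under 0.59 CPM.

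The first question was which of these genes differed from day 0 at each time. A gene was called changed at an adjusted p under 0.05 over all 17457 genes tested and a fold change over 1.5 (edgeR's quasi-likelihood test, Benjamini-Hochberg adjustment, all 15 libraries in 1 fit). At day 7, Bgn, Lum and Vcan were called higher and Ogn and Omd lower, so 3 of 9 rose, where 8.78% of all genes did, and 2 fell, where 7.36% did. At day 14, 4 rose, with Fmod added, against 12.0% of all genes, and 3 fell, with Prelp added, against 11.2%. At day 21, 5 rose, with Aspn added, against 12.4%, and the same 3 fell, against 10.1%. The median log2 fold change of the 9 genes was 0.37, 0.54 and 1.03 at the 3 days, against 0.01, 0.02 and 0.02 for all genes. Dcn was the only tested member not called at any of these days in this fit. Counts rested in part on single libraries. The day 7 count of 5 was 3 without day 7 replicate 1 or replicate 2, and the day 21 count of 8 was 5 without day 21 replicate 1. The libraries of the later day lay beyond all day 0 libraries for 7 of 9 genes at day 7, 5 at day 14 and 6 at day 21, where 30.8%, 31.1% and 35.5% of all genes tested did so.

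**Figure D2:**
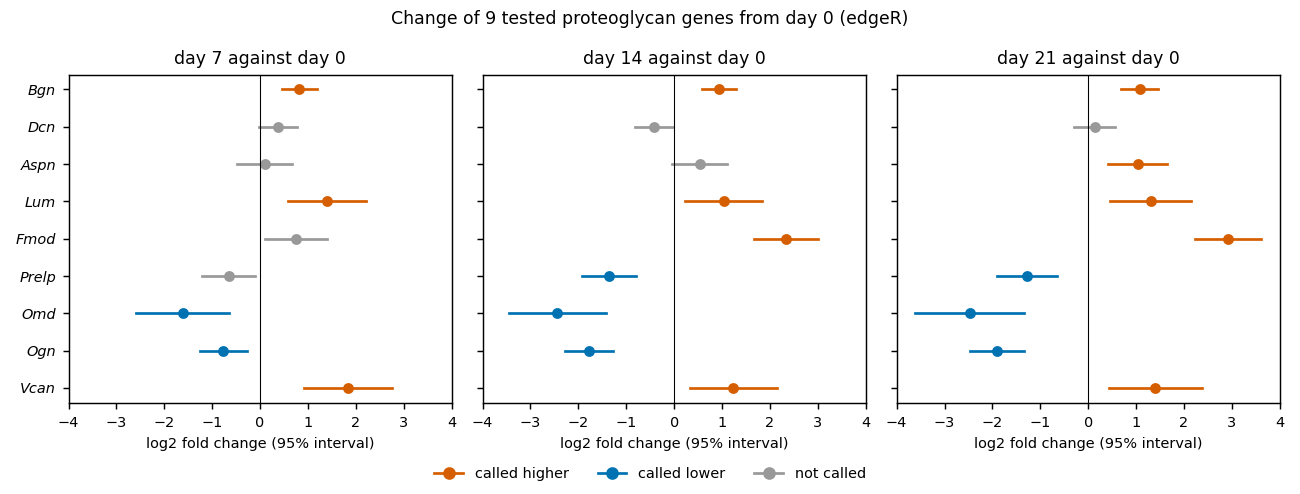
Log2 fold change from day 0 (x axes, point) with its 95% interval (line) for the 9 tested genes (rows) at days 7, 14 and 21, from the edgeR fit. Orange marks genes called higher, blue genes called lower and grey genes not called. Fmod moved from 0.75 at day 7 to 2.92 at day 21, while Ogn, Omd and Prelp stayed below 0.

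Among class I genes, Bgn was called higher at all 3 days after bleomycin and Dcn at none of them, while Aspn was called higher at day 21. Bgn encodes biglycan, which binds collagen and, when released from the matrix, signals through Toll-like receptors. Bgn was at 970.2, 1004, 927 and 1089 CPM in day 0 replicates 1 to 4, and at 1739, 2040.4, 1669 and 1595 CPM in those of day 7. It was at 2684, 1576, 1801 and 1541 CPM at day 14 and at 1904, 2286 and 2101 CPM at day 21. Every library after bleomycin lay above every day 0 library, and day 14 replicate 1 was the highest of all. The log2 fold change was 0.82 (SE 0.17, adjusted p = 0.0032) at day 7, 0.93 (SE 0.17, adjusted p = 0.00071) at day 14 and 1.07 (SE 0.18, adjusted p = 0.00046) at day 21. Bgn stayed above day 0 at all 3 days in every alternative run. Without the 4 libraries rich in heart muscle markers described below, its day 7 value was 0.84 and the call was lost (adjusted p = 0.053).

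Dcn encodes decorin, which binds collagen fibrils and TGFβ. It was at 149, 228, 125 and 153 CPM at day 0, at 234, 224, 173 and 219 CPM at day 7, at 155, 124, 99.1 and 111 CPM at day 14, and at 225, 162 and 153 CPM at day 21. All 3 later days overlapped day 0. Its log2 fold change was 0.37 at day 7 (95% interval -0.02 to 0.77, adjusted p = 0.15), -0.42 at day 14 (-0.82 to -0.02, adjusted p = 0.097) and 0.14 at day 21 (-0.29 to 0.56, adjusted p = 0.65). Without the 4 libraries rich in heart muscle markers, Dcn was called lower at day 14 (-0.65, adjusted p = 0.035). From day 7 to day 14 the libraries of Dcn parted, and it fell by 0.80 on the log2 scale (SE 0.19, adjusted p = 0.023). That call was lost without day 7 replicate 1 (-0.75, adjusted p = 0.058) or replicate 4 (-0.78, adjusted p = 0.061), and without day 14 replicate 2 (-0.80, adjusted p = 0.061) or replicate 3 (-0.71, adjusted p = 0.065). With the share of mitochondrial counts, which was higher in 3 of 4 day 14 libraries than at day 7, as a covariate, Dcn was at -0.57 and the call was lost (adjusted p = 0.21).

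The ratio of Bgn to Dcn counts within a library does not depend on scaling between libraries. It was 6.50, 4.41, 7.39 and 7.12 at day 0, 7.44, 9.12, 9.64 and 7.27 at day 7, 17.3, 12.7, 18.2 and 13.8 at day 14, and 8.48, 14.1 and 13.7 at day 21. All libraries of days 14 and 21 were above all of day 0, while day 7 overlapped it. The mean log2 ratio was higher by 0.41, 1.30 and 0.92 at days 7, 14 and 21. An exact two-sided permutation test gave p = 0.057, 0.029 and 0.057, and each was 0.057 after adjustment over the 3 tests. The smallest p that 4 against 4 libraries allow is 0.029, and that of 4 against 3 is 0.057.

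Aspn encodes asporin, which binds collagen and TGFβ and carries no sugar chain. It was at 12.3, 19.3, 15.9 and 14.8 CPM at day 0 and at 16.6, 12.99, 19.4 and 17.5 CPM at day 7. Day 14 libraries were at 27.2, 26.6, 19.8 and 16.6 CPM, and at day 21 at 52.3, 17.7 and 25.7 CPM. Day 21 replicate 1 was far above the other libraries, and replicate 2 lay within the day 0 range. Its log2 fold change was 0.10 at day 7 (adjusted p = 0.83), 0.54 at day 14 (adjusted p = 0.14) and 1.03 at day 21 (SE 0.29, adjusted p = 0.014). Without day 21 replicate 1 the day 21 value was 0.45 (adjusted p = 0.19), and the call was lost.

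**Figure D3:**
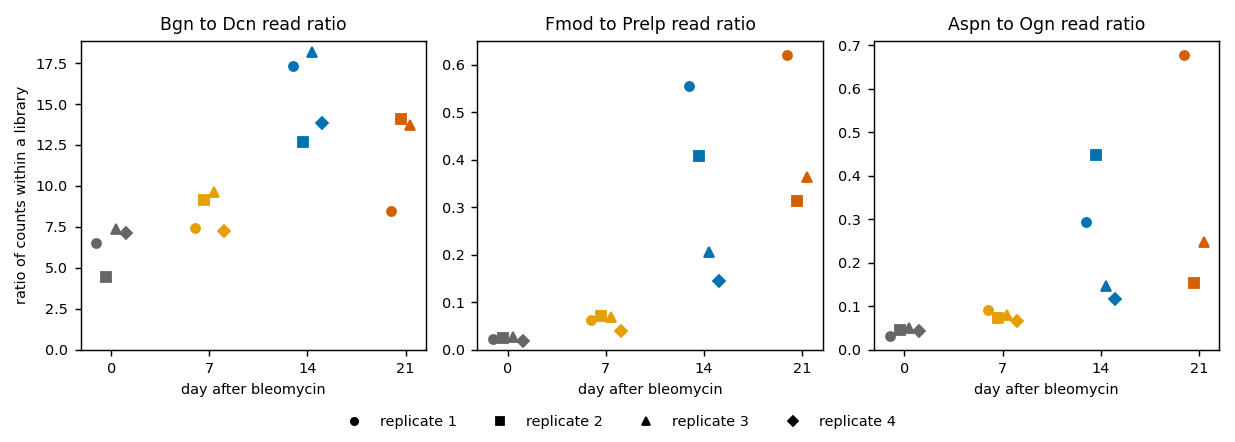
Ratio of counts within each library (y axes, linear from 0) for Bgn to Dcn, Fmod to Prelp and Aspn to Ogn against day after bleomycin (x axes), with 1 point per library and the marker shape giving the replicate number. The Bgn to Dcn ratio lies between 4.41 and 7.39 at day 0 and between 12.7 and 18.2 at day 14, and the other ratios also rise from day 0, with a wide spread at days 14 and 21.

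Class II genes moved in both directions. Lum encodes lumican, which spaces collagen fibrils. Lum was at 4.33, 4.53, 7.23 and 8.80 CPM at day 0 and at 16.5, 10.8, 15.4 and 23.0 CPM at day 7. Day 14 libraries were at 21.2, 7.90, 13.5 and 8.56 CPM, and at day 21 at 23.8, 7.74 and 14.7 CPM. Day 7 lay wholly above day 0, while days 14 and 21 overlapped it. Lum rose by 1.40 at day 7 (SE 0.38, adjusted p = 0.015), 1.04 at day 14 (SE 0.38, adjusted p = 0.046) and 1.30 at day 21 (SE 0.40, adjusted p = 0.023) on the log2 scale.

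The later calls of Lum lay close to the threshold. With every library of the compared days kept, the day 14 call was lost with total count scaling (1.02, adjusted p = 0.0504) and a minimum mean of 1 CPM (adjusted p = 0.0508). It was also lost with only the 2 days compared (1.01, adjusted p = 0.0506) and limma voom (0.99, adjusted p = 0.088), and the day 21 call with limma voom (1.20, adjusted p = 0.051). At day 14 the call was lost without day 0 replicate 1 (0.87), replicate 2 (0.88) or replicate 3 (1.09), and without day 14 replicate 1 (0.66) or replicate 3 (1.01). At day 21 it was lost without day 0 replicate 1 (1.13) or replicate 2 (1.14), and without day 21 replicate 1 (0.81) or replicate 3 (1.29). At all 3 days the value stayed above 0 in every fit that left out 1 library.

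Heart muscle genes, whose source in these lungs was not tested, differed between libraries of a day and moved with Lum. Summed over 7 cardiac markers (Myh6, Myl7, Nppa, Tnnt2, Actc1, Myl4 and Sln), they were at 19.9, 39.8, 264 and 183 CPM at day 0, at 37.4, 25.4, 53.2 and 634 CPM at day 7, at 21.9 to 39.4 CPM at day 14, and at 728, 15.2 and 23.2 CPM at day 21. Nppa was at 0 in 8 of 15 libraries and Sln in 9. At days 0, 7 and 21, the libraries over 100 CPM had the highest Lum of their day. Without the 4 libraries over 100 CPM, the log2 fold change of Lum at day 21 was 1.30 and the call was lost (adjusted p = 0.077), and that of Aspn was 0.43 (adjusted p = 0.38). Their part in these results was not tested.

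Fmod encodes fibromodulin, which guides early collagen fibrils and their cross-linking, and it had the largest rise among the members at days 14 and 21. It was at 11.5, 11.5, 12.05 and 9.25 CPM at day 0 and at 20.6, 14.7, 25.7 and 13.5 CPM at day 7. At day 14 it was at 99.4, 37.2, 52.0 and 34.9 CPM, and at day 21 at 96.0, 59.5 and 95.4 CPM. All libraries of each later day were above those of day 0, and day 14 replicate 1 was the highest. The log2 fold change was 0.75 at day 7 (SE 0.30, adjusted p = 0.083), which was not called, then 2.33 at day 14 (SE 0.31, adjusted p = 5.7e-05) and 2.92 at day 21 (SE 0.33, adjusted p = 1.8e-05). The last values are 5.04-fold and 7.54-fold. At day 7 Fmod was called higher without the filter (0.73, adjusted p = 0.049), with only the 2 days compared (0.72, adjusted p = 0.019) and with a replicate block (0.70, adjusted p = 0.025). Without day 14 replicate 1 the day 14 value was 1.88. Fmod also rose between days 7 and 14 by 1.58 (SE 0.30, adjusted p = 0.010) and between days 7 and 21 by 2.17 (SE 0.32, adjusted p = 0.0017).

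Prelp encodes a basic SLRP that links collagen to heparan sulfate of basement membranes, and its levels went down. It was at 517, 473, 453 and 523 CPM at day 0 and at 328, 205, 377 and 339.9 CPM at day 7. At day 14 it was at 179, 91.2, 252 and 240.2 CPM, and at day 21 at 155, 190.3 and 262 CPM. Every library after bleomycin lay below every day 0 library. Its log2 fold change was -0.65 at day 7 (SE 0.26, adjusted p = 0.079), which was not called, then -1.37 at day 14 (SE 0.27, adjusted p = 0.0012) and -1.28 at day 21 (SE 0.29, adjusted p = 0.0041). At day 7 it was called lower with DESeq2 (-0.68, adjusted p = 0.042), without the filter (-0.67, adjusted p = 0.042), with only the 2 days compared (-0.68, adjusted p = 0.0096), with a replicate block (-0.71, adjusted p = 0.028) and among the libraries under 2.5% mitochondrial counts (-0.68, adjusted p = 0.045). Without the 4 libraries with cardiac markers over 100 CPM the day 21 value was -1.16 and the call was lost (adjusted p = 0.071).

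Omd encodes osteomodulin, a keratan sulfate proteoglycan known from bone. It was at 4.79, 4.41, 5.58 and 3.96 CPM at day 0 and at 0.622, 1.23, 2.47 and 1.78 CPM at day 7. At day 14 it was at 0.531, 0.319, 1.60 and 0.965 CPM, and at day 21 at 0.370, 1.31 and 0.823 CPM. These rest on 71 to 88 counts at day 0 and on 5 to 45 counts at the later days, none of which overlapped day 0. Omd fell, with log2 fold changes of -1.61 at day 7 (SE 0.46, adjusted p = 0.019), -2.44 at day 14 (SE 0.48, adjusted p = 0.0013) and -2.47 at day 21 (SE 0.54, adjusted p = 0.0029). The day 7 call was lost without day 7 replicate 1 (-1.38, adjusted p = 0.054) or replicate 2 (-1.52, adjusted p = 0.054). Without the 4 libraries with cardiac markers over 100 CPM, Omd was at -1.71 at day 7 (adjusted p = 0.093) and -2.13 at day 21 (adjusted p = 0.055).

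Ogn, the class III member, encodes osteoglycin, also called mimecan, a collagen-binding protein of connective tissue. Ogn was at 402, 426, 315 and 342 CPM at day 0 and at 182, 179.8, 243 and 267 CPM at day 7. At day 14 it was at 92.3, 59.4, 136 and 144 CPM, and at day 21 at 77.1, 116 and 104 CPM. Each later day lay below day 0, and days 14 and 21 also lay below day 7. Ogn fell, with log2 fold changes of -0.77 at day 7 (SE 0.23, adjusted p = 0.026), -1.78 at day 14 (SE 0.24, adjusted p = 6.2e-05) and -1.90 at day 21 (SE 0.27, adjusted p = 0.00011). The day 7 call was lost without day 0 replicate 2 (-0.72, adjusted p = 0.053), day 7 replicate 1 (-0.71, adjusted p = 0.073) or day 7 replicate 2 (-0.69, adjusted p = 0.078).

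Neighbours in the genome were set side by side. On chromosome 13, Omd and Ogn fell and Aspn, their neighbour, was called higher at day 21. Ecm2, which begins this cluster, also fell, with log2 fold changes of -1.06, -1.83 and -1.44 at days 7, 14 and 21 (SE 0.19, 0.19 and 0.21). On chromosome 1, Prelp fell and Fmod rose at days 14 and 21. The Fmod to Prelp count ratio was 0.0227 ± 0.0038 at day 0 (SD, n = 4) and 0.432 ± 0.165 at day 21 (SD, n = 3). The Aspn to Ogn ratio was 0.0424 ± 0.00847 at day 0 and 0.678, 0.153 and 0.246 in day 21 replicates 1 to 3, and replicate 1 is the library without which the Aspn call was lost. On chromosome 10, Lum was called higher and Dcn was not, and the Lum to Dcn ratio was 0.0199 to 0.0576 at day 0, 0.0481 to 0.105 at day 7, 0.0636 to 0.137 at day 14 and 0.0477 to 0.106 at day 21, so that days 7 and 21 overlapped day 0, while Kera had at most 3 counts and Epyc at most 1 in any library. The ratios other than Bgn to Dcn are descriptions.

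**Figure D4:**
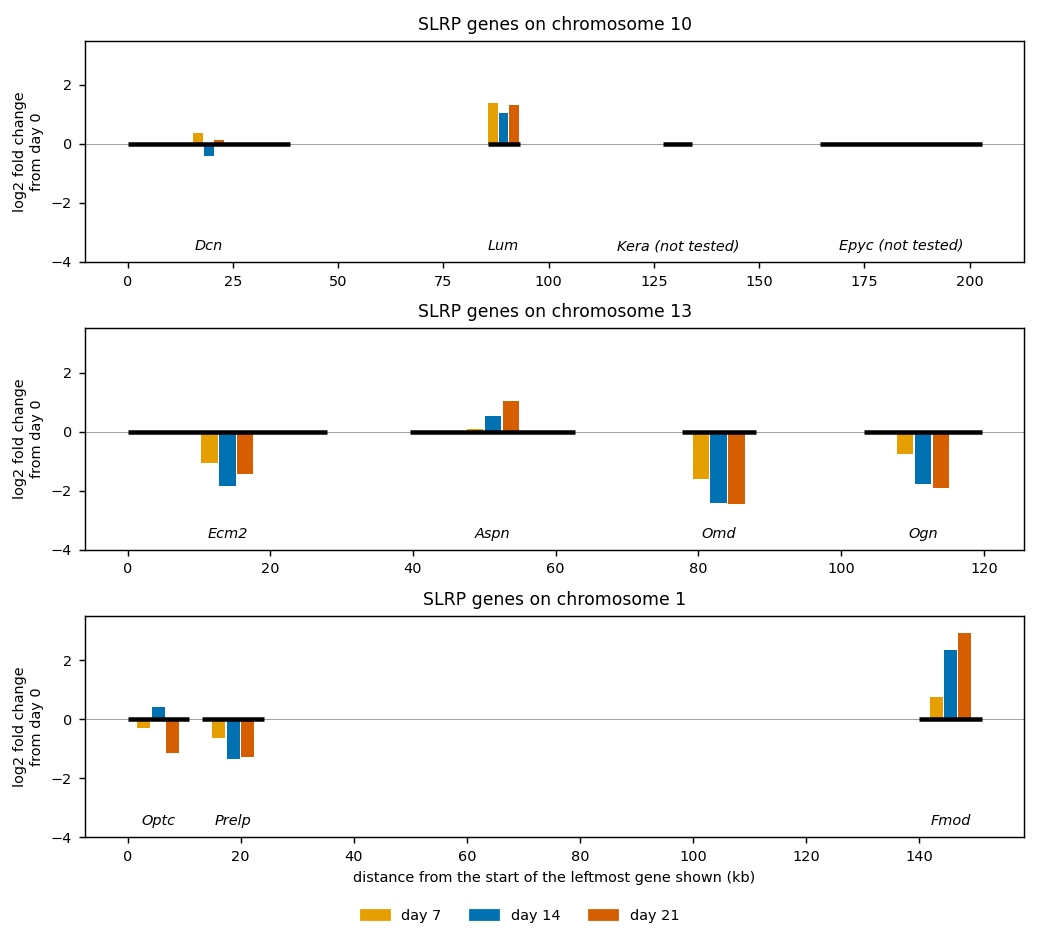
Log2 fold change from day 0 (y axes, bars at days 7, 14 and 21) at the position of each SLRP gene, drawn as a black line to scale in kb from the leftmost gene (x axes), in 3 clusters. Omd and Ogn point down beside Aspn on chromosome 13, and Prelp points down while Fmod points up on chromosome 1. Kera and Epyc were not tested, and Optc had at most 14 counts in any library.

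Of the hyalectans, Vcan rose early. Vcan was at 24.0, 23.9, 6.47 and 10.4 CPM at day 0 and at 54.9, 62.3, 51.0 and 62.2 CPM at day 7. Day 14 libraries were at 76.7, 22.9, 26.3 and 26.2 CPM, and at day 21 at 54.6, 24.5 and 49.4 CPM. Days 7 and 21 lay above day 0, and day 14 overlapped it. Vcan rose by 1.83 at day 7 (SE 0.43, adjusted p = 0.0073), 1.23 at day 14 (SE 0.43, adjusted p = 0.037) and 1.40 at day 21 (SE 0.45, adjusted p = 0.029) on the log2 scale. At day 14 the call was lost without day 14 replicate 1 (0.62), day 0 replicate 3 (0.95) or day 0 replicate 4 (1.05), and with only the 2 days compared (1.22, adjusted p = 0.079). At day 21 it was lost without day 0 replicate 3 (1.11) or replicate 4 (1.21), and without day 21 replicate 1 (1.16) or replicate 3 (1.25).

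The share of counts from 16 mitochondrial genes differed between libraries of a day, and at days 0 and 14 Vcan was lower where it was higher. It was 2.28% and 2.31% in day 0 replicates 1 and 2 and 4.22% and 4.04% in replicates 3 and 4, where Vcan was lower. At day 7 it was 2.03% to 2.15%. At day 14 it was 2.102% in replicate 1, where Vcan was highest, and 3.74% to 4.14% in the others, and at day 21 it was 4.01%, 3.18% and 2.66%, with the highest Vcan in the library of the highest share. Without the 4 libraries with cardiac markers over 100 CPM, which take out both day 0 libraries of high mitochondrial share, Vcan was at 1.19 at day 7 (adjusted p = 0.14), 0.64 at day 14 (adjusted p = 0.32) and 0.59 at day 21 (adjusted p = 0.47). With the share as a covariate in the fit, Vcan was at 1.16 at day 7 (adjusted p = 0.032), 1.39 at day 14 (adjusted p = 0.0014) and 1.76 at day 21 (adjusted p = 0.00050). Among only the libraries under 2.5%, day 0 replicates 1 and 2 and all of day 7, Vcan rose by 1.25 (adjusted p = 0.00080). The set without libraries rich in cardiac markers holds the same libraries of these days except day 7 replicate 4, in a fit of all days. Among only those over 3.5%, day 0 replicates 3 and 4 and day 14 replicates 2 to 4, Vcan rose by 1.56 (adjusted p = 0.0038). These day 0 libraries are the ones rich in cardiac markers. Lum in the same 2 sets was at 1.87 at day 7 (adjusted p = 0.0041) and at 0.30 at day 14 (adjusted p = 0.49), where the call was lost. With the covariate, the day 7 calls of Lum (1.46, adjusted p = 0.076), Ogn (-0.84, adjusted p = 0.073) and Omd (-1.48, adjusted p = 0.11) and the day 14 call of Lum (1.05, adjusted p = 0.051) were lost, at values close to those without it. No label names a batch.

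**Figure D5:**
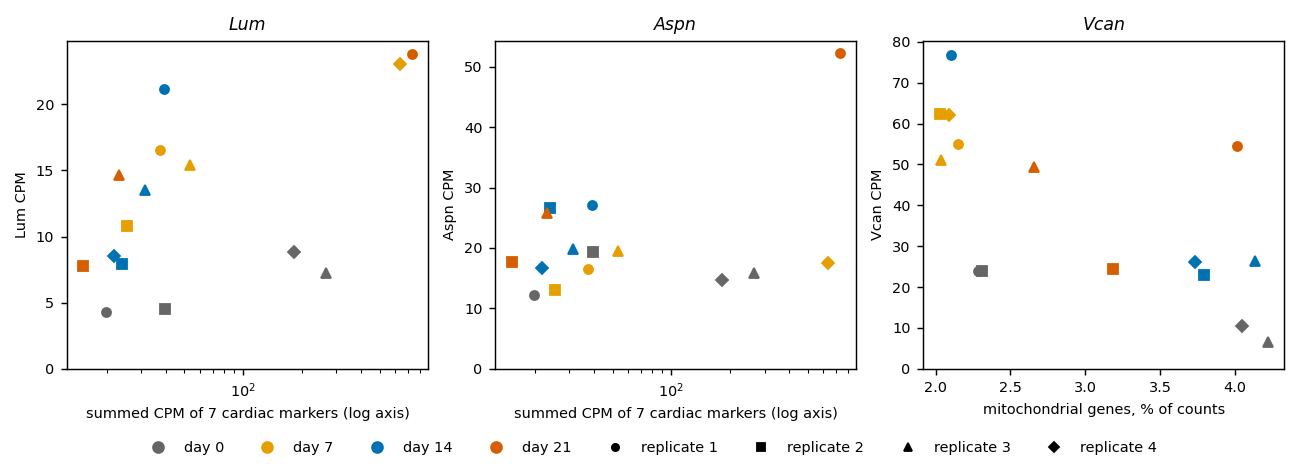
CPM of Lum and Aspn against the summed CPM of 7 cardiac markers (x axis, log scale), and of Vcan against the percent of counts from mitochondrial genes (x axis), with colour for the day and marker shape for the replicate. The library with 728 CPM of cardiac markers has the highest Lum (23.8 CPM) and Aspn (52.3 CPM), and day 0 libraries over 4% mitochondrial counts have the lowest Vcan.

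Acan, the aggrecan of cartilage, was close to absent. It had 0, 3, 0 and 0 counts at day 0, 3, 2, 2 and 0 at day 7, 10, 0, 3 and 1 at day 14, and 3, 3 and 4 at day 21, and was not tested. Cartilage markers summed to 4.72 to 10.0 CPM per library, and 3 of 10 passed the filter. Of these Comp, a collagen-binding matrix protein that fibroblasts also make, rose by 2.08 at day 14 (SE 0.44, adjusted p = 0.0023) and 2.55 at day 21 (SE 0.46, adjusted p = 0.00076). Col2a1, the defining collagen of cartilage, had at most 9 counts in any library.

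Between later days fewer members changed. From day 7 to day 14, 1 rose (Fmod), where 2.77% of all genes did, and 2 fell (Dcn and Ogn), where 3.23% did. Ogn fell by 1.01 (SE 0.23, adjusted p = 0.022), and its call was lost without day 7 replicate 3 (-0.96, adjusted p = 0.057) or replicate 4 (-0.90, adjusted p = 0.067). It was also lost with the mitochondrial covariate (-0.91, adjusted p = 0.18) and without the libraries rich in cardiac markers (-0.89, adjusted p = 0.064). The count of 3 was 1 without day 7 replicate 4. From day 7 to day 21, 2 rose (Fmod and Aspn), where 5.20% of all genes did, and 1 fell (Ogn), where 4.34% did.

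At day 21 against day 7, Ogn fell by 1.13 (SE 0.26, adjusted p = 0.013), lost without day 21 replicate 1 (-1.001, adjusted p = 0.0502), with the mitochondrial covariate (-1.05, adjusted p = 0.064) and without the libraries rich in cardiac markers (-0.86, adjusted p = 0.13). Aspn rose by 0.94 (SE 0.29, adjusted p = 0.043), a call lost without any 1 of day 7 replicates 1 to 4 (0.84 to 1.02) and without day 21 replicate 1 (0.37). It was also lost with limma voom (0.80, adjusted p = 0.082) and with only the 2 days compared (0.94, adjusted p = 0.082). With the covariate it was at 0.89 (adjusted p = 0.16), and without the libraries rich in cardiac markers at 0.42 (adjusted p = 0.40). The count of 3 was 1 without day 21 replicate 1. From day 14 to day 21 no member was called, and 0% of all genes were. At an unadjusted p under 0.05 there were 1714 genes, and DESeq2 called 106 genes and no member. The largest differences among members at these days were 0.58 for Fmod (95% interval -0.08 to 1.24) and 0.56 for Dcn (0.13 to 0.98).

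The genes whose log2 CPM over the 15 libraries was most like each member are given as a description, since all points share the same libraries and days. Among 11818 genes, Bgn was most like Adamts2, the protease that trims procollagen (Pearson r = 0.973), and Fbn1, the fibrillin of microfibrils (0.969). Fmod was most like Apobec1 (0.968) and Thbs2 (0.958). Lum was most like Des, the desmin of muscle (0.881), and Mmp2, a matrix protease (0.877). Aspn was most like Adam8 (0.869) and Pf4 (0.862), and Dcn most like Acox2 (0.899) and Kcnrg (0.895). Ogn was most like Osbpl6 (0.985) and Dpep1 (0.978), and Prelp most like Itga8, an integrin chain of mesenchymal cells (0.978), and Mamdc2 (0.962). Omd was most like Gid4 (0.964) and Phlpp1 (0.963), and Vcan most like Copb1 (0.951) and Pla2g4a (0.942).

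Markers of the cells that make these proteins, and of other cells, were counted in the same way. Of all genes, 8.78%, 12.0% and 12.4% were called higher and 7.36%, 11.2% and 10.1% lower at days 7, 14 and 21. Of 11 fibroblast markers, 1 was called higher and 0 lower at day 7, 3 higher and 5 lower at day 14, and 4 higher and 5 lower at day 21. Their sum was 1884 to 1986 CPM at day 0, 1746 to 2088 at day 7, 1248 to 2015 at day 14 and 1771 to 1868 at day 21. Cthrc1, a marker of matrix-producing fibroblasts, rose by 2.83 and 3.11 on the log2 scale at days 14 and 21 (SE 0.59 and 0.61), while Npnt, used as a marker of alveolar fibroblasts, fell (log2 fold changes -0.84 and -0.99, SE 0.20 and 0.22). Mesothelial markers had 1 of 6 called higher at each day and none lower, and summed to 360.4 to 531 CPM at day 0 and 387 to 1242 CPM later. Lung epithelial markers were present in every library and summed to 52805 to 68214 CPM at day 0 and 9803 to 14402 CPM at day 21, with 2, 5 and 5 of 7 called lower at days 7, 14 and 21. Of 8 monocyte and macrophage markers 3 were called higher at each day and 0 lower. All 5 adipose markers were tested, with 1, 5 and 4 called lower at days 7, 14 and 21, and of 4 endothelial markers 0, 2 and 1 were called lower. Of 6 tested cardiac markers, 1 was called lower at day 14 and 0 at the other days. The part of any of these in the members' values was not tested.

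The other genes of this pathway were taken from lists of related genes. Their counts stand beside 8.78%, 12.0% and 12.4% of all genes called higher and 7.36%, 11.2% and 10.1% lower at days 7, 14 and 21, and a count of 1 in a list of 7 is near those shares. Of 9 other SLRP genes 7 were tested, with 1 called higher and 1 lower at day 7, and 1 higher and 2 lower at days 14 and 21. The day 7 rise was that of Podn, a class V SLRP, and was lost in 11 of 21 alternatives, among them leaving out any 1 of day 0 replicates 1 to 4 or day 7 replicates 1 to 3 (0.51 to 0.71). Podn rose by 1.16 and 1.21 on the log2 scale at days 14 and 21 (SE 0.22 and 0.23). Chad, a collagen-binding SLRP, was at 26.1 ± 5.95 CPM at day 0 and fell, with log2 fold changes of -3.56 and -3.08 (SE 0.56 and 0.61). Among 7 other hyalectans and link proteins 3 were tested, with 0 called at day 7 and 1 higher and 1 lower at days 14 and 21. Hapln1, the link protein that fastens hyalectans to hyaluronan, was at 0.546 ± 0.118 CPM at day 0 and 5.02 ± 1.61 CPM at day 21 and rose by 3.07 and 3.18 (SE 0.34 and 0.35). Bcan, the brevican of brain matrix, fell to 0.461 ± 0.462 CPM at day 21 from 8.53 ± 0.661 CPM. Its day 14 call was lost in 9 of 21 alternatives, among them leaving out any 1 of day 0 replicates 1 to 4 (-1.77 to -1.87) or of day 14 replicates 1 and 2 (-1.47 and -1.52).

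Proteases that cut Vcan and Acan held the largest rise among the related genes named. Of 7, 2 were higher and 0 lower at day 7, 2 higher and 2 lower at day 14, and 2 higher and 1 lower at day 21. Of all genes, 8.78%, 12.0% and 12.4% were higher and 7.36%, 11.2% and 10.1% lower, and 1 of 7 is near those shares. Adamts4 was at 1.11 ± 0.49 CPM at day 0 and at 21.4 ± 7.45, 30.4 ± 10.2 and 36.3 ± 6.96 CPM at days 7, 14 and 21. It rose by 4.27, 4.78 and 5.03 on the log2 scale (SE 0.36, 0.36 and 0.37), and kept its call in all alternatives run. Adamts9 rose by 1.06 and 1.12 at days 7 and 14, and Adamts8, Adamts20 and Adamts1 were called at 1 or 2 days each, with calls that were lost in 4 to 9 alternatives. Leaving out 1 library gave -0.60 to -0.81 where the Adamts8 call was lost, -1.20 to -1.47 where that of Adamts20 was, and 0.72 to 0.86 where that of Adamts1 was.

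Enzymes that build the sugar chains were counted by chain type. Of the 7 enzymes of the linker that joins a chain to the core protein, 1 was higher at each day (B3galt6, B4galt7 and Xylt1) and 0 lower, close to the 8.78%, 12.0% and 12.4% of all genes called higher. The B3galt6 call was lost without day 0 replicate 3 (0.57), that of B4galt7 without day 14 replicate 2 (0.47), and that of Xylt1 without day 0 replicate 3 (0.58) or 4 (0.61) or day 21 replicate 1 (0.62) or 3 (0.55). Of 15 tested enzymes for chondroitin and dermatan chains, 3 were higher and 1 lower at days 7 and 21, and 4 higher and 1 lower at day 14. The lower counts are near the 7.36%, 11.2% and 10.1% of all genes called lower at days 7, 14 and 21. Chsy3, a chondroitin synthase, rose by 2.47, 1.98 and 2.71 on the log2 scale (SE 0.33, 0.32 and 0.34), from 2.26 ± 0.534 to 14.8 ± 2.63 CPM at day 21. Dse, the epimerase that turns chondroitin into dermatan sulfate, rose by 0.96, 0.85 and 0.98, and Chpf2 by 1.18 at day 21. Chst3, a chondroitin sulfotransferase, was the gene called lower at day 7, a call lost in 9 of 21 alternatives, among them leaving out day 0 replicate 1 or 4 or day 7 replicate 1, 2 or 4 (-0.59 to -0.74). Chst3 fell by 1.21 at day 14, and Chst7 was called lower at day 21, a call lost without day 21 replicate 1 (-0.61) or 2 (-0.71). Of 8 enzymes for keratan chains, 1 was higher and 0 lower at day 7, 2 higher and 1 lower at day 14, and 1 higher and 1 lower at day 21. A count of 1 in 8 is near the shares of all genes called higher or lower. B4galt1 was higher at all 3 days, B3gnt7 at day 14, and Chst1 was lower at days 14 and 21. The B3gnt7 call was lost without day 0 replicate 3 (0.72) or day 14 replicate 2 (0.70).

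Among 18 tested heparan sulfate and cell surface proteoglycans, 7 were higher and 1 lower at day 7, 10 higher and 2 lower at day 14, and 8 higher and 1 lower at day 21. Of all genes, 8.78%, 12.0% and 12.4% were higher and 7.36%, 11.2% and 10.1% lower, and the lower counts of this list are near those shares. Gpc1, a membrane-anchored glypican, rose by 1.31, 1.44 and 1.64 on the log2 scale (SE 0.25, 0.25 and 0.27), and Cspg4, a pericyte proteoglycan, by 1.79 at day 21 (SE 0.32). Prg4, the lubricin of joint and serosal surfaces, was called higher at all 3 days, with 12 of 21 alternatives losing the call at day 7, where it was 0.98 without day 7 replicate 2 and 1.63 to 2.01 without day 0 replicate 1, 3 or 4 or day 7 replicate 1. The day 14 call was lost without day 14 replicate 2 (1.82, adjusted p = 0.052). Tgfbr3, the TGFβ co-receptor betaglycan, fell, with log2 fold changes of -0.69, -1.38 and -0.85 (SE 0.18, 0.19 and 0.20), and Esm1, an endothelial proteoglycan, fell by 1.11 at day 14 (SE 0.23).

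The fibril collagens that SLRPs bind were all called higher: 5 of 5 were higher at each day, with median log2 fold changes of 2.14, 2.81 and 2.99 against 0.01, 0.02 and 0.02 for all genes. Col1a1 went from 313 ± 74.7 CPM at day 0 by 2.20, 2.87 and 2.99 on the log2 scale (SE 0.43, 0.44 and 0.46), and Col3a1 by 2.23 at day 7. The 5 collagens summed to 14695 CPM in day 14 replicate 1 and to 3734 to 5307 CPM in the other day 14 libraries, and without replicate 1 the day 14 value of Col1a1 was 2.08. Col5a2 rose by 2.82 and 3.06 at days 14 and 21, and Col5a1 by 3.07 at day 21. The day 21 value of Fmod, 2.92, lay within the range of the collagens, and those of Bgn, Lum, Aspn and Vcan were 1.03 to 1.40.

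Some calls of the related genes were lost in smaller sets of libraries or with the mitochondrial covariate. Leaving out the 4 libraries rich in cardiac markers, where 1264 genes were called at day 7 in place of 2818, lost the day 7 calls of Dse (0.67), B4galt1 (0.59), Gpc1 (1.13), Tgfbr3 (-0.75), Adamts9 (0.51), Col1a1 (1.94), Col5a1 (1.75) and Prg4 (1.51). The day 7 calls of B3galt6 (0.53), Chst3 (-0.46) and Cspg4 (0.87) were lost there as well. At day 14 those of Dse (0.60), Chst1 (-0.78), Prg4 (1.82), B3gnt7 (0.71), Bcan (-1.76) and Adamts20 (-1.06) were lost there. At day 21 those of Dse (0.71), B4galt1 (0.66), Chst1 (-0.79), Prg4 (2.12), Cthrc1 (2.52), Xylt1 (0.40), Chst7 (-0.70) and Adamts8 (-0.85) were lost. With the covariate the day 7 calls of B4galt1 (0.52), Adamts9 (0.83), Col5a1 (1.43), B3galt6 (0.51), Chst3 (-0.73), Podn (0.82), Prg4 (1.63) and Cspg4 (0.58) were lost. Among libraries over 3.5% mitochondrial counts the day 14 calls of Chst1 (-0.70), Comp (1.86), B4galt7 (0.57), Chpf2 (0.46), Bcan (-1.53), Adamts20 (-1.65) and Adamts8 (-0.45) were lost. Among those under 2.5% the day 7 calls of B3galt6 (0.46), Chst3 (-0.56) and Prg4 (1.31) were lost.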

How the data were processed

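Whole-lung RNA was measured in 15 libraries, grouped by the day in their titles. Reads of 150 bases were trimmed, aligned to mm10 (GRCm38) with HISAT2 2.1.0, and reads with several alignments were left out by the authors. The authors counted reads for each Ensembl gene with HTSeq 0.6.0 and deposited these counts without normalization. The annotation release used for counting is not given in the sources used here. GENCODE M21 gave symbols to 33267 of 33340 genes, and the rest held 0.00889% of the counts.

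Counts were tested with edgeR 4.0.16 in R 4.3.3: filterByExpr by day, TMM factors (0.970 to 1.016), glmQLFit and glmQLFTest with day as the only term, at adjusted p under 0.05 over 17457 genes and a fold change over 1.5, the thresholds the study used. The common biological coefficient of variation was 22.8%. Log2 CPM values used a prior count of 2. Log2 fold changes came from the fit with edgeR's default prior, and the Bgn to Dcn log2 ratios from raw counts without one. Standard errors are on the log2 scale and were derived from the F statistic of the test. The 95% intervals are the log2 fold change plus or minus a t quantile times that error. Alternatives used DESeq2 1.42.0 and limma 3.58.1, other scalings and filters, the mitochondrial share as a covariate or within 2 sets of libraries (under 2.5% and over 3.5%), a replicate block, and leaving out each library in turn. One alternative was chosen after seeing the data: leaving out the 4 libraries whose cardiac markers summed to over 100 CPM. The test was checked on simulated data.

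The members, lists and tests were chosen with earlier results of these data known. Named beyond the 10 members were, per related list and day, up to 2 called genes with the largest rise and 2 with the largest fall among those with a mean of at least 1 CPM, and the 2 genes most like each member among those over 5 CPM, leaving out predicted genes. Comp, Col2a1, Kera, Epyc, Optc, Cthrc1 and Npnt were named after their values were seen. Replicate numbers did not pair the libraries: deviations of same-numbered libraries from their day means correlated at -0.24 to 0.40 over 21 pairs. No 2 libraries agreed within sampling noise. Depth limits Omd and Acan, and counting error is one part only of the spread shown.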

Additional observations from a re-analysis of the deposited data

Results flagged for a closer look

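Vcan in day 14 replicate 1 stood far from the other day 14 libraries, at 76.7 CPM against 22.9 to 26.3 CPM. It was the 1 such library among 30 groups of 4 libraries checked, where chance gives about 5%. The same library had the lowest mitochondrial share of day 14, at 2.102% against 3.74% to 4.14%, and the highest Bgn, Lum and Fmod of that day. Without it the log2 fold change of Vcan at day 14 against day 0 was 0.62 and the call was lost.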

How the results depend on the processing

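Of 549 values of the members against day 0 under other settings, 483 kept their direction and their side of the threshold, 53 lost the call, 9 gained it and 4 changed direction. Between later days these were 470, 27, 1 and 24 of 522. With glmTreat, which tests against the 1.5-fold change itself, 0, 4 and 5 members were called at days 7, 14 and 21 against day 0 (5, 7 and 8 in the report), 0 at day 14 against day 7 and 1 at day 21 against day 7 (3 and 3). Calls over all genes fell as well, to 703, 1755 and 1754 against day 0 from 2818, 4040 and 3924, and to 14 and 176 against day 7 from 1048 and 1665. The mitochondrial covariate gave a count of 2 at day 7, and 1 at both day 14 and day 21 against day 7. Without the libraries with cardiac markers it was 2 at day 7, 3 at day 21 and 1 at day 21 against day 7. All genes called at day 7 were 1269 with the covariate and 1264 without those libraries. Leaving out 1 library gave 3 to 5 members at day 7, 5 to 8 at day 21, and 1 to 3 at day 14 or day 21 against day 7. With a replicate block, 7, 7 and 8 members were called at days 7, 14 and 21, and 4 and 2 at days 14 and 21 against day 7, with Fmod and Prelp gained at day 7, and no call lost against day 0. In that fit Prelp was gained and Aspn lost against day 7.

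Values that changed direction were not called. Without the libraries with cardiac markers, Dcn was at -0.29 at day 21 against day 0, and at day 21 against day 14 Lum was at -0.19, Ogn at 0.027, Aspn at -0.058, Omd at 0.31 and Vcan at -0.045. Omd was at 0.067 with the replicate block and 0.035 with limma voom at day 21 against day 14. Vcan with the mitochondrial covariate was at 0.23 at day 14 and 0.59 at day 21 against day 7, the latter from -0.43. Leaving out 1 library gave -0.10 to 0.20 for Bgn at day 14 against day 7, -0.088 to 0.30 for Dcn at day 21 against day 0, -0.57 to 0.21 for Lum at day 21 against day 7 and -0.030 to 0.20 for Aspn at day 7 against day 0. At day 21 against day 14 the ranges were -0.20 to 0.61 for Lum, -0.34 to 0.047 for Ogn, -0.16 to 0.25 for Prelp, -0.066 to 0.77 for Aspn, -0.52 to 0.46 for Omd and -0.058 to 0.76 for Vcan. The cause was not tested.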
